A study of Homo sapiens with 18 samples.

Results

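The comparison described here was that of the SCD1 inhibitor CAY10566 with its vehicle, DMSO, in OVCAR5 cells that received no added fatty acid. OVCAR5 is an established line of human ovarian cancer cells, labelled as a high grade serous adenocarcinoma. Its members were the 6 libraries, out of 18 in the series, whose labels named DMSO or CAY10566 alone, 3 of each. The DMSO group received vehicle for 24 h, and the CAY10566 group received 1 µM of the inhibitor for 24 h. Both groups were wild type and were kept in medium with albumin free of fatty acids, which the other 12 libraries also had. Those 12 libraries carried 50 µM stearate or 50 µM oleate with DMSO or with 1 µM CAY10566, 3 libraries for each of these 4 combinations. The labels did not say that replicates came from separate cultures, so the p-values given here measure the spread between libraries, which may be technical.

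SCD1, encoded by SCD, is the endoplasmic reticulum (ER) enzyme that places a double bond in saturated acyl-CoAs and so makes oleate from stearate and palmitoleate from palmitate. Unsaturated fatty acids and sterols restrain the SREBP transcription factors, which drive the genes of fatty acid and cholesterol synthesis, SCD among them. An excess of saturated acyl chains in the ER membrane is known to activate the unfolded protein response (UPR) through its sensors PERK, IRE1 and ATF6. CAY10566 blocks the enzyme and not its transcript, so no RNA level here measures the inhibition itself.

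Expression was given as TPM, a unit in which each gene's transcripts, corrected for length, are scaled to the same total in every library. Read numbers are not kept in TPM, so library depth is unknown and error is given only by the spread between libraries. Of 60483 genes listed, 13707 averaged 1 TPM or more in these 6 libraries and were tested, 11592 of them protein coding and 1282 long non-coding. Values were compared as log2(TPM + 1), a scale that understates the fold change of genes with low TPM. In such bulk RNA, fewer cells expressing a gene and less RNA per cell cannot be told apart. The 12 epithelial markers examined were all expressed, and KRT8 lay between 903 and 1004 TPM. Of 9 Müllerian and serous markers, PAX8 (9.79 to 13.5 TPM), WFDC2 and FOLR1 reached a mean TPM of 1, whereas WT1 did not exceed 0.22, SOX17 did not exceed 0.05, and ESR1 did not exceed 0.42 TPM. Only COL1A1 among 9 fibroblast markers, CD68 among 10 immune markers and none of 7 endothelial markers reached that mean, and PTPRC was at most 0.01 TPM.

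CAY10566 replicate 3 stood apart from the other 5 libraries. It held the highest value of the 6 for 40.1% of genes, against 9.27% to 13.3% in each other library, and the lowest value for 14.1%. Across genes its correlation with the other libraries was 0.980 to 0.982, whereas pairs among the other 5 ranged from 0.983 to 0.986. On the first principal component, which carried 27.7% of the variance, it scored 33 and the others scored between -11.9 and -3.75. Its difference from the mean of the other 5 grew with transcript length, with a Spearman coefficient across genes of 0.42, and the medians over 5 equal groups of genes from short to long were -0.04, 0.01, 0.08, 0.15 and 0.24 on the log2 scale. Ribosomal protein genes held 22.4% of its TPM against 23.3% to 23.7% in the others, and mitochondrial genes held 6.36%, inside the range of the others (6.22% to 7.11%). Counts of members at an unadjusted p under 0.05 are given with and without this library, as are the values of most of the genes named. The cause of its difference was not tested.

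**Figure D1:**
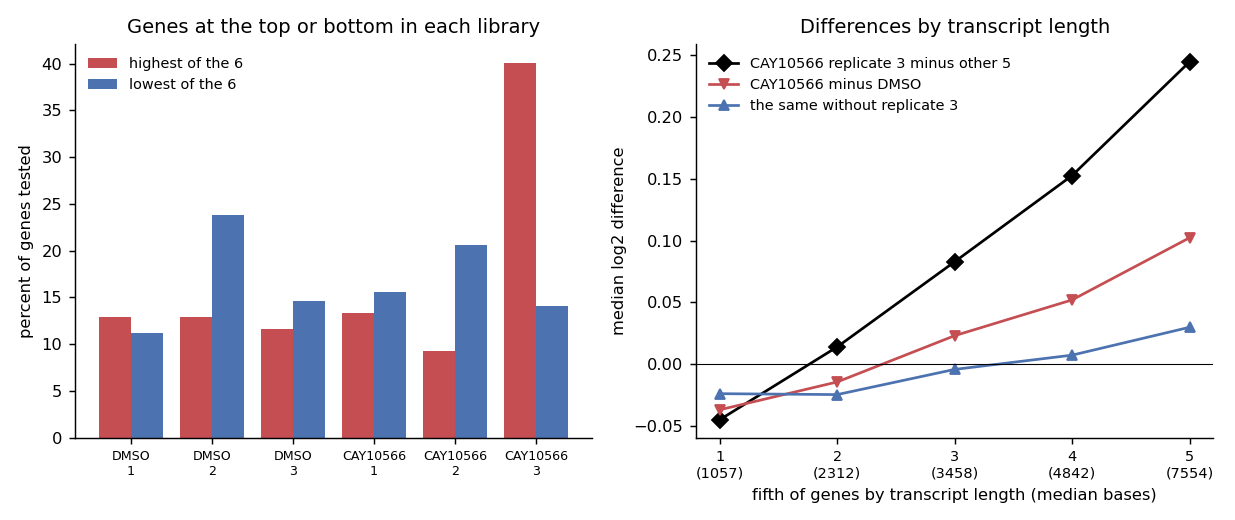
Left, percent of the 13707 genes for which each library was the highest or the lowest of the 6. Right, median log2 difference in each of 5 equal groups of genes by transcript length (median bases in brackets), for CAY10566 replicate 3 minus the mean of the other 5 libraries and for CAY10566 minus DMSO with and without it. Replicate 3 was highest for 40.1% of genes, and the medians for CAY10566 minus DMSO ran from -0.04 to 0.10 with it and from -0.02 to 0.03 without it.

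No gene passed the test for the inhibitor alone. With limma fitted to all 18 libraries and genes called where the false discovery rate (FDR, by Benjamini and Hochberg's method) was under 0.05 and the log2 fold change over 0.322 in size, 0 of 13707 genes (0%) were differentially expressed, and the smallest FDR was 0.372. At an unadjusted p under 0.05, 879 genes (6.41%) were higher with CAY10566 and 519 (3.79%) were lower, 1398 in all, where that level alone would give 685 of 13707. Without CAY10566 replicate 3 there were again 0 called genes (0%), the smallest limma FDR was 0.168, and the direction of the balance turned, with 315 genes (2.3%) higher and 483 (3.52%) lower at an unadjusted p under 0.05. The 2 sets shared 523 genes with the same direction, which was 37.4% of the 1398 and 65.5% of the 798. The higher genes thus made up 62.9% with that library and 39.5% without it. Removing from each library its dependence on transcript length and GC gave 799 higher and 697 lower, and array weights, by which limma gave that library the lowest weight of the 18 (0.348), gave 590 higher and 530 lower.

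**Figure D2:**
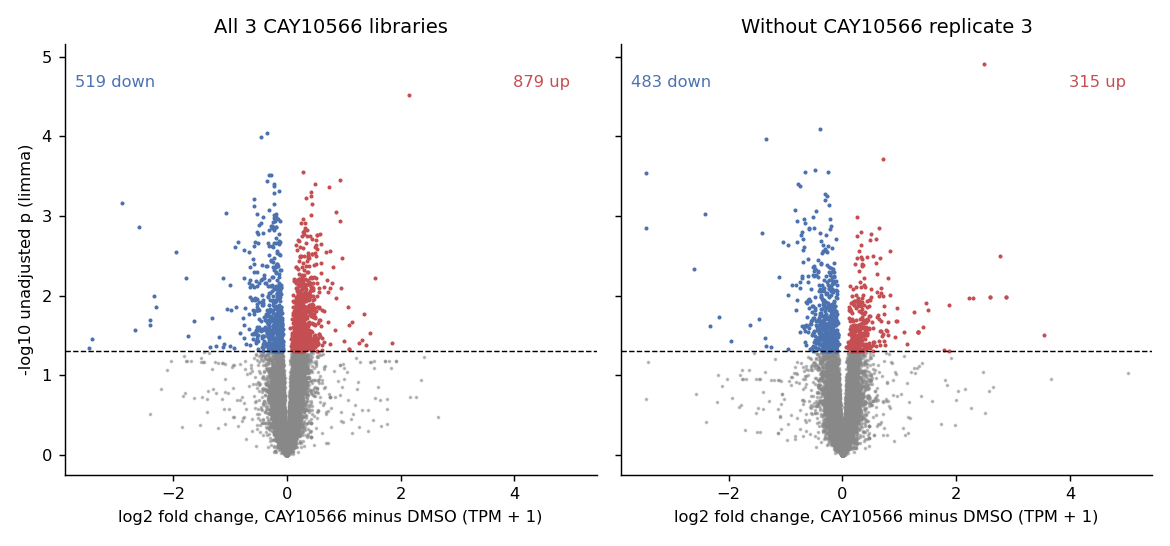
Log2 fold change of CAY10566 minus DMSO against -log10 of the unadjusted p-value of limma for each of 13707 genes, with all libraries (left) and without CAY10566 replicate 3 (right); the dashed line marks the 0.05 level, red points are higher and blue points lower. Red outnumbers blue on the left (879 to 519) and blue outnumbers red on the right (483 to 315), and no point passed the FDR threshold in either.

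The median half-width of the 95% interval was 0.217 on the log2 scale, and for 6963 genes (50.8%) the whole interval lay inside the fold threshold of 0.322 in either direction. That number was 7052 without CAY10566 replicate 3. The median log2 fold change over all genes was 0.02, and -0.0044 without that library. The 3 CAY10566 values all lay above the 3 DMSO values for 1168 genes (8.52%) and all below for 848 (6.19%), and with the 2 remaining CAY10566 libraries these numbers were 1513 (11%) and 1738 (12.7%). For a single gene, an exact two-sided permutation test of 3 against 3 libraries has 20 splits and cannot give a p below 0.1. Groups that lie fully apart have that p, so 0.1 is also the share of unchanged genes expected to lie apart in either direction. With 2 against 3 libraries there are fewer splits and groups lie apart more often, so the shares with and without replicate 3 are not comparable.

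SCD, on chromosome 10 (GRCh38, 100347233 to 100364826, plus strand), was among the abundant transcripts. Its level was 185, 183 and 167 TPM in the 3 DMSO libraries and 185, 174 and 207 TPM in the 3 CAY10566 libraries. The groups overlapped, and only CAY10566 replicate 3 exceeded every DMSO library. The log2 fold change was 0.08 ± 0.08 (SE, n = 3 per group), with a 95% interval from -0.10 to 0.25 and a limma FDR of 0.733, and it was 0.01 without replicate 3. A difference in SCD of the size of the fold threshold was thus outside the interval. SCD5, the other human stearoyl-CoA desaturase (chromosome 4, 82629539 to 82798796), was lower, with 2.98, 2.36 and 2.33 TPM under DMSO and 2.47, 2.41 and 2.86 TPM under CAY10566. Its log2 fold change was 0.01 ± 0.11 (SE), and -0.04 without replicate 3.

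The SREBP genes and their retention factor had overlapping groups. SREBF1 (chromosome 17, 17810399 to 17837002), which encodes SREBP1, was at 52.2, 55.1 and 50.5 TPM under DMSO and at 58.2, 50.4 and 57.9 TPM under CAY10566. SREBF2 (chromosome 22, 41833105 to 41907306), which encodes SREBP2, was at 40.7, 36.5 and 38.0 TPM under DMSO and at 39.7, 36.9 and 47.6 TPM under CAY10566. INSIG1 (chromosome 7, 155297776 to 155310235), which holds the SREBP carrier SCAP in the ER and is itself an SREBP target, was at 64.5, 64.4 and 57.1 TPM under DMSO and at 66.5, 62.0 and 71.6 TPM under CAY10566. The log2 fold changes of these 3 genes were 0.07 (SE 0.09), 0.10 (SE 0.10) and 0.10 (SE 0.07), and their limma FDR values were 0.789, 0.713 and 0.603. Without replicate 3 the values were 0.04, -0.0034 and 0.05.

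**Figure D3:**
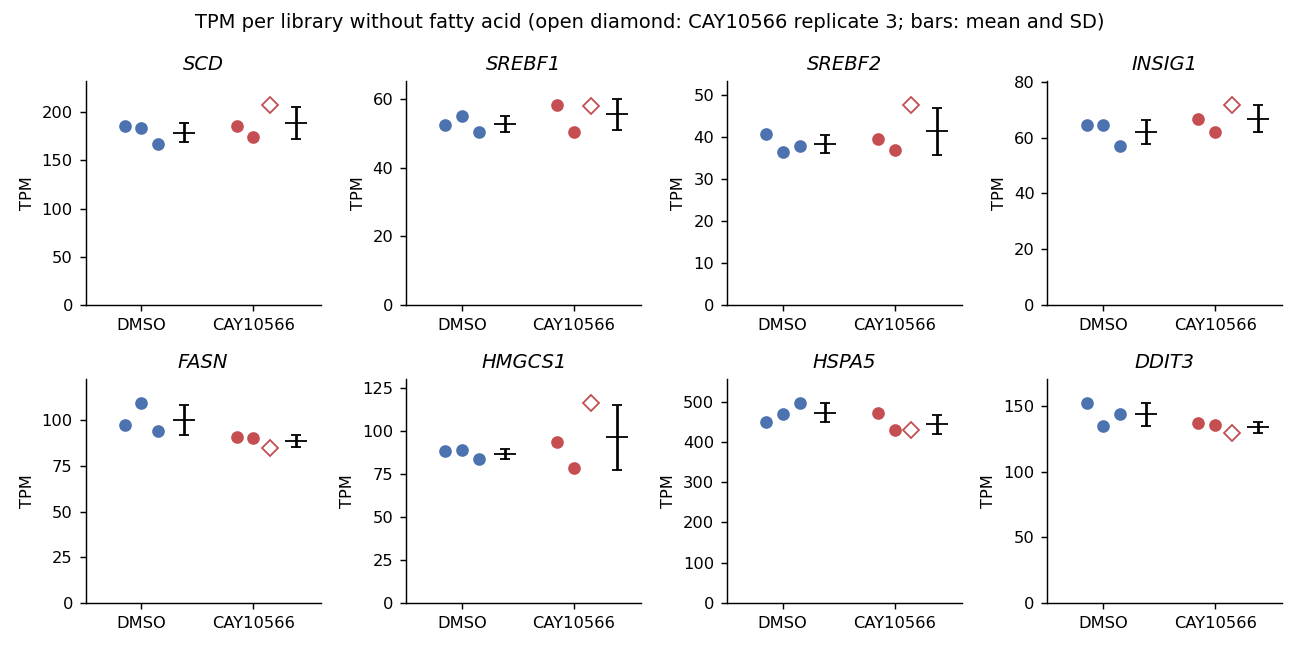
TPM in each of the 6 libraries for the desaturase gene SCD, the SREBP pathway genes SREBF1, SREBF2, INSIG1, FASN and HMGCS1, and the ER stress genes HSPA5 and DDIT3, with the mean and SD of each group as bars and CAY10566 replicate 3 as an open diamond. The groups overlap in all panels but that of FASN, and replicate 3 is the highest library for SCD, SREBF2, INSIG1 and HMGCS1.

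The 16 tested genes of SREBP control and cholesterol uptake had 15 positive log2 fold changes (93.8%, against 57.4% of all genes), with a median of 0.09 against 0.02 over all genes. At an unadjusted p under 0.05 there were 0 of them, with or without replicate 3. Of all genes, 6.41% and 3.79% were higher and lower with that library, and 2.3% and 3.52% without it. MBTPS2, the protease that cuts SREBPs within the membrane, was at 14.1, 13.7 and 14.0 TPM under DMSO and at 14.8, 15.3 and 16.4 TPM under CAY10566, with no overlap and a log2 fold change of 0.14 (limma FDR 0.507), or 0.10 without replicate 3. ERLIN2, an ER protein of the route by which INSIG1 and other proteins are degraded, was at 39.7, 35.5 and 37.1 TPM under DMSO and at 37.3, 37.5 and 55.1 TPM under CAY10566. Replicate 3 was the highest of the 6 libraries for 13 of these 16 genes, and without it the median was 0.03, 11 of 16 values were positive (68.8%, against 48.4% of all genes) and the log2 fold change of ERLIN2 went from 0.18 to -0.00013. The intervals of 12 of the 16 genes (75%) lay inside the fold threshold, against 50.8% of all genes, a share that most lists exceeded. Without replicate 3 those of all 16 did, against 51.4% of all genes.

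Among the 21 genes of cholesterol synthesis, all tested, 0 were higher and 2 were lower at an unadjusted p under 0.05, and the median log2 fold change was 0.02. These were 0% and 9.52% of the list, against 6.41% and 3.79% of all genes. Without replicate 3 there were 0 higher and 3 lower, against 2.3% and 3.52% of all genes, and the added gene was ACAT2 (-0.20). The lower pair in all libraries were FDPS, which makes farnesyl diphosphate, and TM7SF2, a sterol reductase. FDPS (chromosome 1, 155308748 to 155320666) was at 224.5, 223 and 220.0 TPM under DMSO and at 209.9, 208 and 205 TPM under CAY10566. The groups were tight and did not overlap, and the difference was small, with a log2 fold change of -0.10 (SE 0.03, limma FDR 0.431) and of -0.09 without replicate 3. TM7SF2 was at 46.1, 42.2 and 41.1 TPM under DMSO and at 29.4, 38.9 and 40.2 TPM under CAY10566, with a log2 fold change of -0.26 (SE 0.09, limma FDR 0.432). It was -0.34 without replicate 3 and -0.12 without CAY10566 replicate 1, the lowest library. GGPS1, which makes geranylgeranyl diphosphate, had the next smallest p, at 24.9, 21.8 and 19.8 TPM under DMSO and 27.0, 23.6 and 23.3 TPM under CAY10566. SQLE, the squalene epoxidase, and the early enzyme HMGCS1, both chosen after their values were seen, had log2 fold changes of 0.02 and 0.13, and of -0.0013 and -0.01 without replicate 3. HMGCS1 was at 88.0, 88.5 and 83.4 TPM under DMSO and at 93.6, 78.5 and 116 TPM under CAY10566, so that CAY10566 replicates 2 and 3 lay on opposite sides of all DMSO libraries.

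Of 10 tested genes of fatty acid synthesis, 1 was higher and 2 were lower at an unadjusted p under 0.05 (10% and 20%, against 6.41% and 3.79% of all genes). Without replicate 3 there were 0 higher and 1 lower, against 2.3% and 3.52% of all genes. OXSM, the ketoacyl synthase of the mitochondrial pathway, was at 13.5, 11.6 and 13.0 TPM under DMSO and at 10.9, 10.5 and 10.0 TPM under CAY10566, with a log2 fold change of -0.26 (SE 0.08, limma FDR 0.430) and of -0.23 without replicate 3. SLC25A1, the mitochondrial citrate carrier, was at 131, 138 and 129.9 TPM against 129, 122 and 119 TPM, a log2 fold change of -0.11 (SE 0.04), or -0.08 without replicate 3. ACLY, which turns citrate into cytosolic acetyl-CoA, lay the other way, at 71.1, 65.5 and 69.1 TPM under DMSO and 74.3, 74.9 and 89.4 TPM under CAY10566, with a log2 fold change of 0.21 (SE 0.07), or 0.12 without replicate 3. None of these 3 genes had overlapping groups. FASN, the cytosolic synthase (chromosome 17, 82078338 to 82098294), was at 97.5, 109 and 93.8 TPM under DMSO and at 90.5, 90.0 and 84.7 TPM under CAY10566, also without overlap. Its log2 fold change was -0.18 (95% interval -0.37 to 0.01, limma FDR 0.502), and -0.15 without replicate 3. It ran from -0.22 to -0.11 when single libraries were left out. ACACA, which makes malonyl-CoA, had a log2 fold change of -0.10 (SE 0.15), or -0.24 without replicate 3. FASN and ACACA were chosen after their values were seen.

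The desaturation and elongation list had 15 tested genes, of which 0 were higher and 1 was lower at an unadjusted p under 0.05 (0% and 6.67%, against 6.41% and 3.79% of all genes), and 0 either way without replicate 3 (against 2.3% and 3.52% of all genes). TECR, the reductase of the last step of elongation, was at 97.8, 96.8 and 100.7 TPM under DMSO and at 89.9, 91.3 and 80.0 TPM under CAY10566, with a log2 fold change of -0.18 (SE 0.06, limma FDR 0.431) and of -0.12 without replicate 3. HSD17B12 and HACD2, the ketoacyl-CoA reductase and a dehydratase of the same cycle, both had log2 fold changes of 0.12 (SE 0.07 for each), which were 0.13 and 0.06 without replicate 3, and HSD17B12 was 0.06 without CAY10566 replicate 1. FADS1, FADS2 and ELOVL6, the desaturases of polyunsaturated chains and the elongase of palmitate, chosen after their values were seen, had log2 fold changes of 0.08, 0.13 and 0.09, and of -0.03, 0.12 and 0.09 without replicate 3. Leaving out single libraries moved ELOVL6 between 0.02 and 0.15. The groups overlapped for FADS1 and ELOVL6 and not for FADS2, which was at 13.4, 12.02 and 13.4 TPM under DMSO and at 13.7, 14.5 and 14.6 TPM under CAY10566. The list's median was 0.07 with replicate 3 and 0.01 without it, and 13 of the 15 intervals (86.7%, against 50.8% of all genes) lay inside the fold threshold. Most lists had a share above that of all genes, such as 88.2% for heat shock chaperones and 81% for cholesterol synthesis. Fatty acid synthesis (50%) and LXR targets (44.4%) lay below it.

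**Figure D4:**
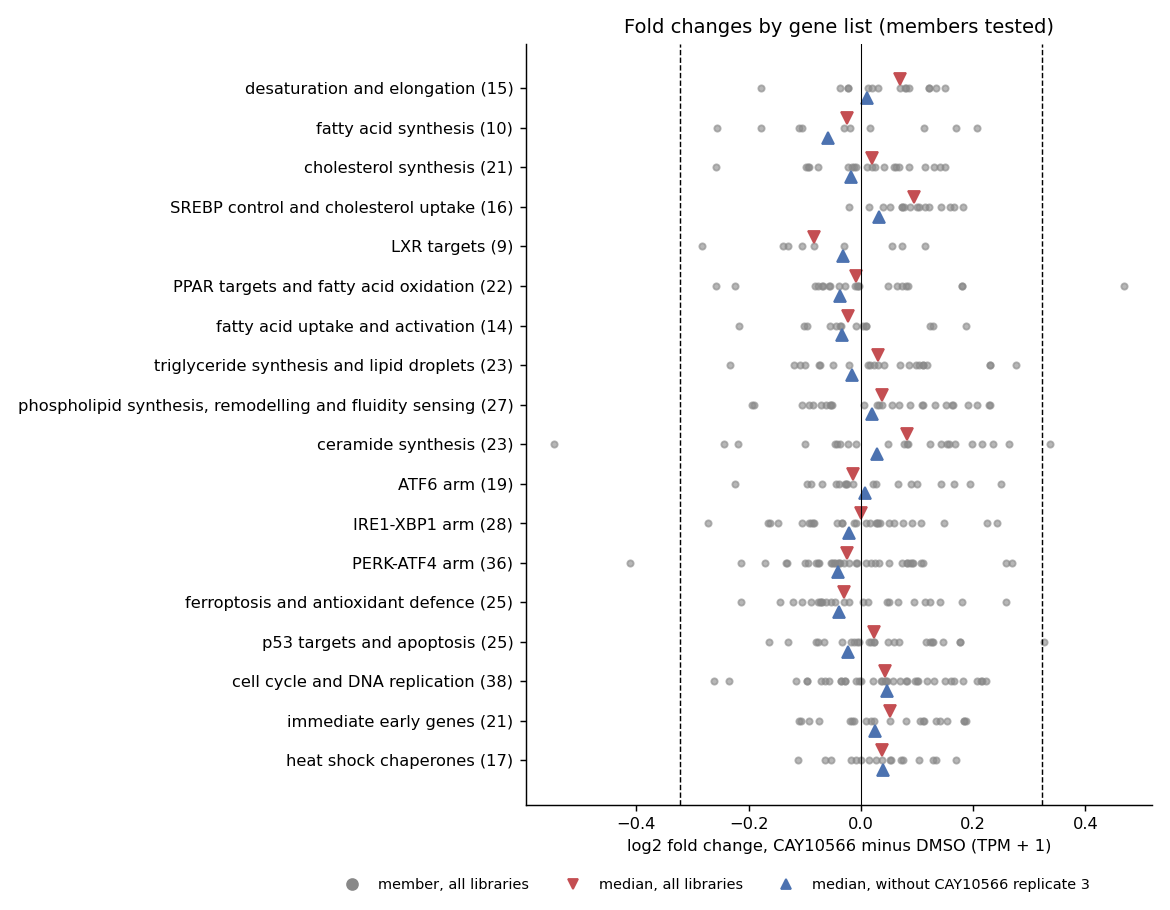
Log2 fold change of CAY10566 minus DMSO for each tested member of 18 gene lists (grey points), with the median of each list over all libraries (red) and without CAY10566 replicate 3 (blue); dashed lines mark the fold threshold of 0.322. The list medians ran from -0.08 to 0.09, and the few members beyond the threshold, such as PPARA (0.47) and CERS4 (-0.55), did not pass the FDR.

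In ceramide synthesis, 4 of 23 tested genes were higher and 2 were lower at an unadjusted p under 0.05 (17.4% and 8.7%, against 6.41% and 3.79% of all genes). Without replicate 3 there were 1 higher and 2 lower, against 2.3% and 3.52% of all genes. The 2 lower members were ceramide synthases, which join a fatty acyl-CoA to a sphingoid base. CERS5 (chromosome 12, 50129289 to 50167533) was at 33.4, 32.7 and 35.4 TPM under DMSO and at 29.6, 27.6 and 29.6 TPM under CAY10566. It did not overlap between groups, and its log2 fold change of -0.22 (SE 0.05, limma FDR 0.372) was -0.24 without replicate 3. CERS4, at low levels, had 2.65, 3.68 and 3.04 TPM under DMSO and 1.32, 1.59 and 2.69 TPM under CAY10566, a log2 fold change of -0.55 (SE 0.17, limma FDR 0.430) and of -0.74 without replicate 3. KDSR, which reduces ketodihydrosphingosine, was at 34.2, 32.1 and 33.2 TPM under DMSO and at 37.0, 35.1 and 39.4 TPM under CAY10566, again with no overlap, a log2 fold change of 0.16, or 0.12 without replicate 3. A further ceramide synthase gene, CERS1, stood on the other side with a log2 fold change of 0.34 (limma FDR 0.464) at a mean of 1.51 TPM under DMSO, so the synthases did not share a direction.

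In the list of PPAR targets and fatty acid oxidation, 1 of 22 genes was higher and 0 were lower at an unadjusted p under 0.05 (4.55% and 0%, against 6.41% and 3.79% of all genes). Without replicate 3 there were 0 higher and 3 lower, against 2.3% and 3.52% of all genes, whose balance turned the same way. The higher gene was PPARA, the receptor that senses fatty acids, at 2.92, 3.76 and 2.92 TPM under DMSO and 5.30, 3.58 and 5.72 TPM under CAY10566. Its groups overlapped, with a log2 fold change of 0.47 (SE 0.16, limma FDR 0.431) and of 0.36 without replicate 3. Its listed partners SLC25A20, the carrier of acylcarnitines, and ANGPTL4, a secreted lipase inhibitor, had values of -0.23 and -0.26, and of -0.36 and -0.35 without replicate 3, and made up the 3 lower genes with HADHA, a subunit of the trifunctional protein (-0.08, and -0.12 without replicate 3). When single libraries were left out, SLC25A20 ran from -0.36 to -0.15 and ANGPTL4 from -0.35 to -0.16. In triglyceride synthesis and lipid droplets, 2 of 23 were higher (8.7%, against 6.41% of all genes) and 0 were lower (against 3.79%). Without replicate 3 there were 0 either way, against 2.3% and 3.52% of all genes. The higher pair were the phosphatidate phosphatases LPIN1 and LPIN2. LPIN1 was at 43.4, 41.9 and 40.6 TPM under DMSO and at 46.7, 44.7 and 63.6 TPM under CAY10566, and its log2 fold change went from 0.28 to 0.12 without replicate 3. LPIN2 went likewise from 0.23 to 0.09. G0S2, an inhibitor of triglyceride lipolysis, was the third of that list, with 246, 229.8 and 230.1 TPM under DMSO and 235, 253 and 268 TPM under CAY10566.

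In phospholipid synthesis, remodelling and fluidity sensing, 1 of 27 genes was higher (3.7%) and 0 were lower, against 6.41% and 3.79% of all genes, and without replicate 3 there were 0 higher and 1 lower, against 2.3% and 3.52% of all genes. The higher gene was LCLAT1, an acyltransferase of cardiolipin remodelling, with a log2 fold change of 0.23 (0.17 without replicate 3, and 0.14 to 0.29 over single libraries left out). The lower gene without replicate 3 was LPCAT2, a lysophospholipid acyltransferase, at -0.52 (-0.19 with it). PCYT1A, which sets the rate of phosphatidylcholine synthesis, and SELENOI, which makes phosphatidylethanolamine, followed with 0.16 and 0.23, and with 0.08 and 0.05 without replicate 3. The acyl-CoA-binding protein DBI was the 1 lower gene of 14 in fatty acid uptake and activation (7.14% against 3.79% of all genes, and 0 without replicate 3 against 3.52%), at 403, 402 and 383 TPM under DMSO and 371, 376 and 363 TPM under CAY10566, a log2 fold change of -0.10 without overlap. ACBD3 and LRP8, a Golgi adaptor and a lipoprotein receptor of that list, had overlapping groups and log2 fold changes of 0.13 and 0.19, or 0.03 for each without replicate 3. Of 9 tested LXR targets, which respond to oxysterols, 0 had an unadjusted p under 0.05, with or without replicate 3, against 6.41% and 3.79% of all genes higher and lower. The lowest p were those of NR1H3, which encodes LXR alpha, ABCG1, a sterol exporter, and LPCAT3, which places polyunsaturated chains in phospholipids, at -0.28, -0.14 and -0.10. The value of LPCAT3 was -0.0068 without CAY10566 replicate 2, and that of ABCG1 ran from -0.20 to -0.08 when single libraries were left out.

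The UPR genes showed no called difference either. HSPA5, the main ER chaperone, was at 450.2, 469 and 498 TPM under DMSO and at 472, 429.9 and 431 TPM under CAY10566, with overlapping groups and a log2 fold change of -0.09 (95% interval -0.18 to 0.0032), or -0.07 without replicate 3. DDIT3, which encodes the apoptotic factor CHOP, was at 153, 135 and 144 TPM under DMSO and at 137, 136 and 129 TPM under CAY10566, a log2 fold change of -0.10 (95% interval -0.19 to -0.0051, limma FDR 0.471), or -0.07 without replicate 3. When single libraries were left out, HSPA5 ran from -0.13 to -0.05 and DDIT3 from -0.14 to -0.06. XBP1, the target of IRE1, had a log2 fold change of 0.03 (95% interval -0.05 to 0.11), and ATF4, the factor translated downstream of PERK, had one of -0.08 (95% interval -0.13 to -0.02). These 4 genes, chosen after their values were seen, had intervals that lay inside the fold threshold. TPM per gene measures neither the splicing of XBP1 RNA nor the translation of ATF4.

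Of 36 genes of the PERK-ATF4 arm, 2 were higher and 4 were lower at an unadjusted p under 0.05 (5.56% and 11.1%, against 6.41% and 3.79% of all genes). Without replicate 3 there were 0 higher and 3 lower, against 2.3% and 3.52% of all genes. The 4 lower genes were CHAC1, ASNS and the ATF4 and DDIT3 given above, and ATF4 and DDIT3 were not among the 3 without replicate 3. The list had a median log2 fold change of -0.03, and 31 of the 36 intervals lay inside the fold threshold. CHAC1 (chromosome 15, 40952962 to 40956512), which degrades glutathione, was at 31.6, 31.0 and 30.4 TPM under DMSO and at 27.5, 25.7 and 26.6 TPM under CAY10566. Its groups were narrow and apart, and the log2 fold change was -0.21 with and without replicate 3 (SE 0.05, limma FDR 0.372 and 0.636). ASNS, asparagine synthetase, was at 345, 351 and 349 TPM under DMSO and at 329, 316 and 285 TPM under CAY10566, a log2 fold change of -0.17 (SE 0.05, limma FDR 0.384) that was -0.11 without replicate 3. The 2 higher members were the amino acid transporters SLC38A2 and SLC7A11, with log2 fold changes of 0.27 and 0.26, and of 0.13 and 0.12 without replicate 3.

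For the ATF6 arm, 2 of 19 genes were higher and 1 was lower (10.5% and 5.26%, against 6.41% and 3.79% of all genes), with 0 either way without replicate 3 (against 2.3% and 3.52% of all genes). For the IRE1-XBP1 arm, 1 of 28 was higher and 1 was lower (3.57% each), and without replicate 3 there were 0 higher and 1 lower, SEC63, a part of the translocon (-0.38). CANX, a lectin chaperone, was at 383, 359 and 389 TPM under DMSO and at 421, 397 and 538 TPM under CAY10566, and its log2 fold change of 0.25 was 0.12 without replicate 3. MANF, a secreted ER stress protein, was at 99.5, 89.7 and 86.2 TPM under DMSO and at 80.6, 81.5 and 73.2 TPM under CAY10566, a log2 fold change of -0.22 (SE 0.09), or -0.18 without replicate 3. EDEM1, which helps to extract misfolded glycoproteins, had a log2 fold change of 0.23, and SEC61G, a subunit of the translocon, had one of -0.17, which were 0.19 and -0.10 without replicate 3. The median of the ATF6 list was -0.01 and that of the IRE1-XBP1 list was -2.8e-05.

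Among the other stress lists, the 25 tested genes of ferroptosis and antioxidant defence had 2 higher and 3 lower (8% and 12%, against 6.41% and 3.79% of all genes). Without replicate 3 there were 0 higher and 3 lower, against 2.3% and 3.52% of all genes. The lists share members, and SLC7A11 (higher) and CHAC1 (lower) were counted both here and in the PERK-ATF4 arm. NQO1, a quinone reductase, was at 760.3, 766 and 754 TPM under DMSO and at 722, 697 and 677 TPM under CAY10566. Its log2 fold change of -0.12 (SE 0.03, limma FDR 0.372) was among the most precise of the named genes, and it was -0.10 without replicate 3. GPX4, which reduces lipid peroxides, had a log2 fold change of -0.05, and ACSL4, which activates polyunsaturated chains, one of 0.12, both with overlapping groups and both chosen after their values were seen. Without replicate 3 these were -0.03 and 0.05.

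For p53 targets and apoptosis, 3 of 25 genes were higher and 0 were lower (12% and 0%, against 6.41% and 3.79% of all genes), and without replicate 3 there were 1 higher and 1 lower, against 2.3% and 3.52% of all genes. BCL2L11, which encodes the BCL2 antagonist BIM, was at 7.44, 5.71 and 6.22 TPM under DMSO and at 10.1, 7.41 and 7.63 TPM under CAY10566, with a log2 fold change of 0.33 (SE 0.12, limma FDR 0.436). The groups overlapped, and the value was 0.38 without replicate 3 and 0.20 without CAY10566 replicate 1, the highest library. TNFRSF10A, a receptor of the death ligand TRAIL, had 0.18, and 0.06 without replicate 3. Of 21 immediate early genes, 1 was higher, KLF6 (0.19, and 0.09 without replicate 3), and 1 was lower, IER3 (-0.11, and -0.08 without it), 4.76% each. HSPA8, the constitutive cytosolic chaperone, was the 1 higher gene of 17 heat shock chaperones (5.88%) at 0.17, and HSPB1 of the same list had -0.11. Without replicate 3 these were 0.11 and -0.03, and 0 genes of either list had an unadjusted p under 0.05.

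The cell cycle and DNA replication list had 5 higher and 1 lower of 38 at an unadjusted p under 0.05, which is 13.2% and 2.63% against 6.41% and 3.79% of all genes. BUB1, a mitotic checkpoint kinase, was at 63.9, 62.3 and 62.8 TPM under DMSO and at 72.5, 68.0 and 71.0 TPM under CAY10566. TOP2A, the mitotic topoisomerase, was at 68.0, 61.5 and 67.4 TPM under DMSO and at 76.8, 69.9 and 82.5 TPM under CAY10566. Both had groups that did not overlap, with log2 fold changes of 0.16 (SE 0.05, limma FDR 0.415) and 0.22 (SE 0.07, limma FDR 0.430), and of 0.15 and 0.16 without replicate 3. The list's median was 0.04 with that library and 0.05 without it. Without it, 2 of the 38 genes were higher and 2 lower, against 2.3% and 3.52% of all genes.

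The largest differences among genes that averaged 5 TPM or more and had groups that did not overlap were found in a mixture of small RNAs, long non-coding RNAs and coding transcripts. The 5 largest in the positive direction were RN7SL2, ZDHHC17, B4GALT6, BCAN-AS2 and TECPR1. ZDHHC17 (chromosome 12, 76764103 to 76853696), a protein palmitoyltransferase, was at 5.04, 4.22 and 5.57 TPM under DMSO and at 7.76, 7.96 and 11.6 TPM under CAY10566, with a log2 fold change of 0.75 (SE 0.17, limma FDR 0.372) and of 0.58 without replicate 3. B4GALT6, which makes lactosylceramide, was at 5.61, 4.61 and 3.74 TPM under DMSO and at 7.42, 6.09 and 9.47 TPM under CAY10566. Its log2 fold change was 0.61, and 0.46 without replicate 3. RN7SL2, a copy of the RNA of the signal recognition particle, had a log2 fold change of 0.85, and BCAN-AS2 and TECPR1 had 0.57 each, which were 0.69, 0.33 and 0.38 without replicate 3. RN7SL2 has near-identical copies, so reads may have been split among them, and its value is uncertain. In all 5, replicate 3 was the highest library, and the DMSO mean without fatty acid lay below those of DMSO with stearate and with oleate. These means were 4.94, 7.51 and 8.21 TPM for ZDHHC17 and 4.65, 7.53 and 9.04 TPM for B4GALT6. For the 5 genes in the order first given, the log2 fold changes of CAY10566 against DMSO with stearate were 0.58, 0.07, -0.02, -0.15 and 0.09. With oleate they were -0.50, -0.01, -0.10, -0.14 and -0.34.

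The 5 largest in the negative direction were SCARNA16, CHMP1B-AS1, ZBTB43, NPIPA7 and DEFB4A. ZBTB43 (chromosome 9, 126805006 to 126838210), a zinc finger gene, was at 9.57, 9.62 and 9.31 TPM under DMSO and at 4.13, 4.05 and 5.81 TPM under CAY10566. The log2 fold change of -0.90 (SE 0.25, limma FDR 0.372) was -1.05 without replicate 3. Replicates of 1 condition differed by about as much elsewhere, at 5.83, 11.3 and 11.1 TPM with stearate and DMSO and at 5.36, 11.6 and 5.87 TPM with oleate and CAY10566. SCARNA16, a short RNA of Cajal bodies, was at 5.79, 11.8 and 14.1 TPM under DMSO, was listed at 0 in CAY10566 replicates 1 and 2, and was at 2.23 TPM in replicate 3. CHMP1B-AS1, an antisense RNA, was at 23.9, 19.7 and 18.2 TPM under DMSO and at 13.4 and 3.64 TPM in CAY10566 replicates 1 and 2, and was listed at 0 in replicate 3. DEFB4A, a defensin, was at 7.47, 9.89 and 6.25 TPM under DMSO and at 4.26, 4.21 and 4.21 TPM under CAY10566, a log2 fold change of -0.74 with and without replicate 3. NPIPA7 had a log2 fold change of -0.85, which ran from -1.03 to -0.56 when single libraries were left out. NPIPA7 and DEFB4A belong to families of near-identical copies, and their values are uncertain for the same reason as that of RN7SL2.

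Leaving out CAY10566 replicate 3 changed the positive end of this list and not most of the negative end. Without it, the largest positive differences were those of the ribosomal RNA genes RNA5-8SN1, RNA5-8SN2 and RNA5-8SN3, with a further gene of the same kind that had identical values in every library, and of RPPH1, the RNA of ribonuclease P. The shared ribosomal value was 251, 329 and 363 TPM under DMSO and 965, 629.7 and 240.2 TPM under CAY10566, so that replicates 1 and 2 lay above and replicate 3 below every DMSO library. The libraries were prepared as mRNA libraries, and the source of these ribosomal values was not tested. RPPH1 was at 10.3, 6.42 and 13.5 TPM under DMSO and at 22.0, 23.0 and 11.5 TPM under CAY10566. At the negative end, SCARNA16, CHMP1B-AS1, ZBTB43 and NPIPA7 were again among the 5, and FOXP4-AS1 replaced DEFB4A, at 8.54, 12.7 and 6.09 TPM under DMSO and 5.12, 3.94 and 7.51 TPM under CAY10566.

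The 10 genes furthest from the other libraries in replicate 3, 5 each way, were each listed at 0 in some libraries, and 9 of them were short RNAs or pseudogenes. The other was the antisense RNA CHMP1B-AS1, listed at 0 there as given above, whose log2 fold change of -2.40 was -1.39 without that library. SNORA51 and SNORA84 were listed at 0 in the other 5 libraries and were at 40.4 and 38.2 TPM in replicate 3. The pseudogene TMSB4XP6 was at 61.4 TPM there, at 37.5 TPM in DMSO replicate 2 and at 55.2 TPM in CAY10566 replicate 2, and was listed at 0 in the remaining 3. Below the other libraries along with CHMP1B-AS1, RNU2-27P, RNVU1-7, RPS28P7 and CDC26P1 were listed at 0 in replicate 3. RNU2-27P was also listed at 0 in DMSO replicates 2 and 3, and was at 65.1 TPM in DMSO replicate 1 and at 35.2 and 70.9 TPM in CAY10566 replicates 1 and 2. SEPTIN14P2 and RMRP, the other members of the upper end, were each listed at 0 in at least 1 other library.

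The gene with the smallest p of all had no symbol in the annotation. ENSG00000276026 was listed at 0 in the 3 DMSO libraries and was at 2.63, 7.61 and 1.76 TPM in the CAY10566 libraries, with a limma FDR of 0.372, and of 0.168 without replicate 3. In the 12 libraries with fatty acid it was between 2.19 and 9.77 TPM, with and without the inhibitor, so the DMSO libraries without fatty acid were the exception among the 18.

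The same inhibitor was also given with each fatty acid, and those effects rest on other libraries than the ones above. At an unadjusted p under 0.05, 756 of 13707 genes differed between CAY10566 and DMSO with stearate and 641 with oleate. Of the 1398 genes at that level without fatty acid, 36 were also among the 756 with the same direction (2.58% of the 1398 and 4.76% of the 756) and 67 with the opposite direction. For oleate, 24 were among the 641 with the same direction (1.72% and 3.74%) and 56 with the opposite direction. Beside the 4.76% and 3.74%, 6.41% of all genes were higher and 3.79% lower at that level without fatty acid. Without CAY10566 replicate 3, 798 genes were at that level, of which 39 were shared in the same direction with stearate and 33 with oleate. Shared genes of opposite direction were not counted without that library. Across the 13707 genes, which are not independent, the log2 fold changes without fatty acid had a Pearson coefficient of -0.05 with those under stearate and of -0.11 with those under oleate. Without CAY10566 replicate 3 these coefficients were -0.02 and -0.05.

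In the test of the difference itself, the inhibitor's effect with stearate minus that without fatty acid, limma called 1 gene of 13707 (0.0073%), and 1290 had an unadjusted p under 0.05, 328 (2.39%) positive and 962 (7.02%) negative. The called gene was FDPS. With stearate it was at 198, 189 and 188 TPM under DMSO and at 225, 223 and 229 TPM under CAY10566, higher in every inhibitor library, whereas without fatty acid it was lower in every inhibitor library. The log2 fold changes were 0.24 with stearate and -0.10 without, and their difference was 0.34 ± 0.05 (SE), with a limma FDR of 0.034. The call was lost without CAY10566 replicate 3 (0.33, FDR 0.108), without DMSO replicate 1 (0.33, FDR 0.160) or DMSO replicate 2 (0.33, FDR 0.056), and without CAY10566 replicate 1 (0.34, FDR 0.084) or 2 (0.34, FDR 0.119). It was also lost with the replicate block (0.34, FDR 0.061), with no trend in the fit (0.34, FDR 0.191), with size factors (0.40, FDR 0.096) and with length and GC removed (0.31, FDR 0.103). Of the 6 stearate libraries, leaving out any but DMSO replicate 1 also ended the call (FDR 0.101 to 0.201).

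SCD had a log2 fold change of 0.37 with stearate (95% interval 0.20 to 0.54, limma FDR 0.412) and of 0.20 with oleate (0.03 to 0.38, limma FDR 0.979). Its level with stearate was 169.9, 152 and 131 TPM under DMSO and 189, 188 and 206 TPM under CAY10566, with no overlap. With oleate it was 104, 107 and 99.9 TPM against 114, 128 and 116 TPM, again with no overlap. The difference between the effect with stearate and that without fatty acid was 0.29 (95% interval 0.04 to 0.54, limma FDR 0.507), and for oleate it was 0.12 (-0.12 to 0.37, limma FDR 0.704). FASN and OXSM had the same pattern of sign as FDPS for stearate, with effects of 0.26 and 0.19 there and differences of 0.44 and 0.45 from the effect without fatty acid, both at a limma FDR of 0.444. Of 10 fatty acid synthesis genes, 4 had a positive and 1 a negative difference for stearate at an unadjusted p under 0.05, and of 21 cholesterol synthesis genes these numbers were 2 and 1. The cell cycle list had 1 positive and 13 negative differences of 38. As shares these were 40% and 10%, 9.52% and 4.76%, and 2.63% and 34.2% of the lists, against 2.39% and 7.02% of all genes. Without CAY10566 replicate 3 the numbers were 5 and 0 of 10, 4 and 1 of 21, and 2 and 10 of 38, against 372 and 543 of 13707. These 3 lists were picked after their values were seen, and each of the other 15 lipid, stress and cell process lists had 0 or 1 positive and 0 to 5 negative differences, the 5 being in the PERK-ATF4 arm. The difference for oleate had 0 called genes of 13707 (0%) and 1408 at an unadjusted p under 0.05.

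**Figure D5:**
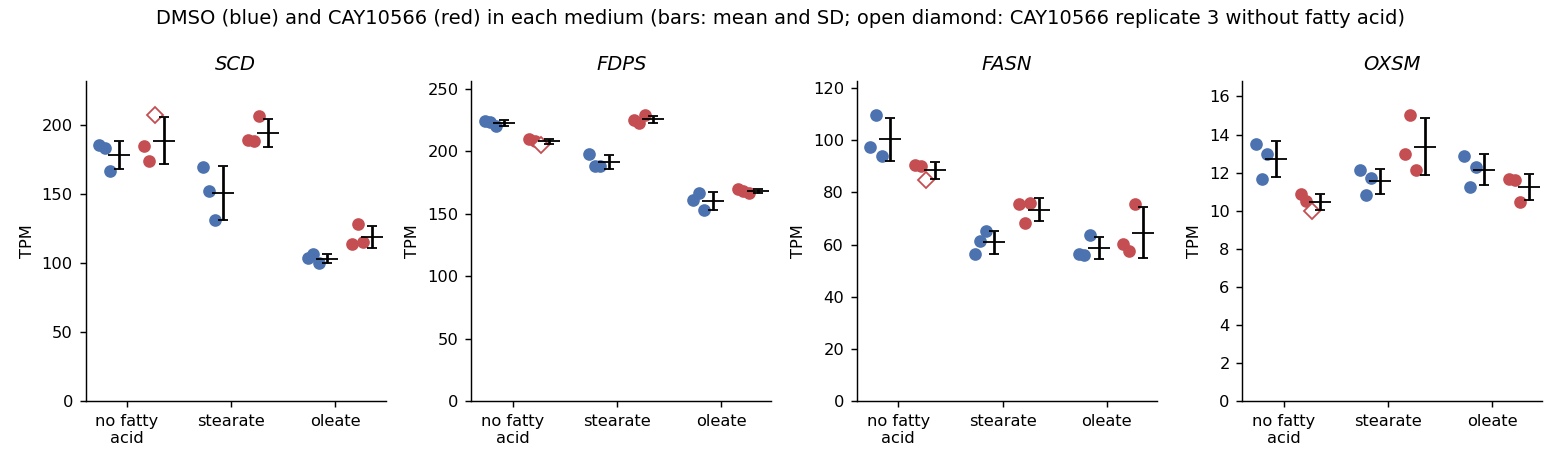
TPM of SCD, FDPS, FASN and OXSM in each of the 18 libraries, DMSO in blue and CAY10566 in red, by medium, with the mean and SD of each group as bars. For FDPS the inhibitor libraries lie below DMSO without fatty acid (205 to 209.9 against 220.0 to 224.5 TPM) and above it with stearate (223 to 229 against 188 to 198 TPM).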

How the data were processed

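RNA from OVCAR5 cells was sequenced from stranded mRNA libraries, 3 per condition. The authors trimmed reads with Trim Galore, aligned them with STAR 2.7.1a to GRCh38 (per the labels) and deposited TPM per gene, on which all values here rest. Every library sums to the same total, so depth is unknown, no interval for counting error can be given, and the count of reads behind a value cannot be recovered.

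Genes that averaged 1 TPM or more in the 6 libraries without fatty acid were kept. log2(TPM + 1) was fitted with limma 3.58.1 (R 4.3.3; lmFit, eBayes with trend) to all 18 libraries with 6 conditions and 12 residual degrees of freedom, as one estimate of the spread. The call required an FDR (Benjamini-Hochberg) under 0.05 and a log2 fold change over 0.322 in size. The fit was repeated without CAY10566 replicate 3, with the same genes. The procedure was tested on simulated data. Symbols, positions and lengths came from GENCODE release 44, in the same build; 98.9% of tested genes had a length. Python 3.11.15 with matplotlib 3.10.9 made the figures.

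The members and the gene lists were chosen with earlier results of these data known. Genes were named by rule: SCD, SCD5, SREBF1, SREBF2 and INSIG1; called genes; the 5 largest differences each way among genes with a symbol, an average of 5 TPM or more and groups apart, with and without CAY10566 replicate 3; the 3 smallest p-values of each lipid list and the 2 smallest of each stress list; and the 5 genes furthest above and below the other libraries in CAY10566 replicate 3. Some genes that the lists hold are counted with their list but not reported here by name. Members of a list at an unadjusted p under 0.05 (SLC38A2, SLC7A11, CERS1, ACAT2, HADHA, LPCAT2 and SEC63), and the gene with the smallest p, were named after their values were seen. Alternatives were a pseudocount of 0.1; no filter; an average of 5 TPM or more; no trend; median-of-ratios size factors; the replicate block; removal of each library's trend on length and GC (splines with 3 degrees of freedom); the 6 libraries alone; array weights; and each of the 6 libraries left out. Length and GC removal without CAY10566 replicate 3, and leaving out each stearate or oleate library for the difference that holds it, were chosen after seeing the data.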

Additional observations from a re-analysis of the deposited data

Results flagged for a closer look

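FDPS was singled out because the inhibitor's effect differed between media in a test of the difference itself. The effect of CAY10566 with stearate minus that without fatty acid was 0.34 on the log2 scale (SE 0.05, limma FDR 0.034). The 3 CAY10566 libraries without fatty acid all lay below the 3 DMSO libraries, and the 3 with stearate all lay above theirs. The corresponding difference for oleate was 0.17 (limma FDR 0.447). The call for stearate was lost when any of DMSO replicates 1 and 2 or CAY10566 replicates 1, 2 and 3 was left out, and was kept without DMSO replicate 3 (0.34, FDR 0.049). Of the 6 stearate libraries, leaving out any but DMSO replicate 1 also lost it (FDR 0.101 to 0.201), and without that one it was kept (0.36, FDR 0.032). It was also lost with the replicate block (FDR 0.061), no trend (FDR 0.191), size factors (FDR 0.096) and length and GC removal (FDR 0.103).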

How the results depend on the processing

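No read number is known, so depth sets no stated limit; the spread of 3 libraries per group does, and a log2 fold change under 0.322 in size is not called by the rule. The count of called genes for CAY10566 without fatty acid was 0 in every alternative but a pseudocount of 0.1 (1 gene, ENSG00000276026), no filter on TPM (1 gene, RPL35P6, a pseudogene) and the fits without DMSO replicate 2 (2 genes without symbols) or 3 (PAEPP1); leaving out single libraries gave 0 to 2. The number at an unadjusted p under 0.05 ran from 798 (without CAY10566 replicate 3) to 1920 (without CAY10566 replicate 2) when single libraries were left out, and was 803 without DMSO replicate 2 (405 higher, 398 lower) and 921 with the 6 libraries alone and without CAY10566 replicate 3. The log2 fold change of SCD stayed between 0.01 and 0.13 when single libraries were left out.

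For the difference between the effect with stearate and that without fatty acid, the 1 called gene became 2 with a pseudocount of 0.1 and 0 with no trend, size factors or length and GC removal (alone, with the block, or without CAY10566 replicate 3). Leaving out single libraries gave 0 to 2 for those without fatty acid, and 0 for the stearate libraries other than stearate with DMSO replicate 1, which gave 1. For oleate the count of 0 became 1 with a pseudocount of 0.1 and 1 with no trend. Leaving out single libraries gave 0 to 2 for those without fatty acid and 0 for each oleate library.

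Libraries with the same replicate number had correlated deviations of 0.08, 0.03 and 0.06 across genes, none over 0.1, so the numbers were not taken to pair them, although each CAY10566 library correlated best with its own number. With the replicate block 0 genes were called and 1318 had an unadjusted p under 0.05, the log2 fold change of SCD stayed at 0.08 (limma FDR 0.753), and the stearate difference had 0 called genes (FDPS 0.34, FDR 0.061).

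Of 1579 alternative values for 88 results on named genes, 1520 kept direction and side of the threshold, 38 changed sign without being called, 4 went to 0 (SNORA51 and SNORA84), 16 lost the call (all FDPS) and 1 gained it. SLC38A2, SLC7A11, CERS1, ACAT2, HADHA, LPCAT2, SEC63 and the genes under the other observations below were not among these results. Fitted with the 6 libraries alone and without CAY10566 replicate 3, the log2 fold change was -0.043 for SCD5, -0.0034 for SREBF2, -0.00013 for ERLIN2, -0.0013 for SQLE, -0.014 for HMGCS1, -0.032 for FADS1, -0.69 for SEPTIN14P2, 0.46 for RNVU1-7, and 0 for SNORA51 and SNORA84. Fitted with the other 17 libraries with length and GC removed, again without CAY10566 replicate 3, it was -0.029 for SCD5, -0.016 for ERLIN2, -0.029 for HMGCS1, -0.027 for FADS1, 0.0074 for GPX4, -0.70 for SEPTIN14P2 and 0.47 for RNVU1-7. Size factors gave -0.0061 for SCD5 and -0.00036 for SQLE, and array weights gave -0.026 for SCD5, -0.23 for SEPTIN14P2 and 0.017 for RNVU1-7. When single libraries were left out, the log2 fold change ran from -0.043 to 0.096 for SCD5, -0.0034 to 0.18 for SREBF2, -0.00013 to 0.28 for ERLIN2, -0.035 to 0.073 for SQLE, -0.014 to 0.27 for HMGCS1, -0.032 to 0.17 for FADS1 and -0.24 to 0.034 for ACACA. It ran from 0 to 2.69 for SNORA51, 0 to 2.65 for SNORA84, -1.06 to 1.19 for SEPTIN14P2, -1.96 to 0.52 for RMRP, -1.64 to 0.46 for RNVU1-7 and -0.90 to 1.19 for CDC26P1. The causes were not tested.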

Other observations

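Several genes outside the lists had groups that did not overlap and an unadjusted p among the smallest of the comparison, although none passed the FDR. They were chosen after their values were seen. LCN2, which encodes the iron-binding secreted protein lipocalin, was at 2008, 2243 and 2232 TPM under DMSO and at 1881, 1891 and 1571 TPM under CAY10566, a log2 fold change of -0.28 (SE 0.06, limma FDR 0.372) and of -0.19 without CAY10566 replicate 3. YBEY, a mitochondrial RNA endonuclease, was at 16.1, 17.2 and 14.4 TPM under DMSO and at 11.4, 10.8 and 11.7 TPM under CAY10566, a log2 fold change of -0.46 and of -0.48 without that library.

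MRPS6, a protein of the small mitochondrial ribosomal subunit, was at 57.4, 58.5 and 54.5 TPM under DMSO and at 48.9, 45.5 and 43.0 TPM under CAY10566, a log2 fold change of -0.31 (limma FDR 0.372) and of -0.26 without that library. In the other direction, OSBP2, an oxysterol-binding protein, was at 48.3, 51.1 and 50.7 TPM under DMSO and at 57.7, 62.1 and 63.0 TPM under CAY10566. Its log2 fold change was 0.28 (SE 0.06, limma FDR 0.372), and 0.26 without that library. NFIA, a transcription factor, was at 7.90, 7.53 and 8.12 TPM under DMSO and at 11.8, 10.9 and 11.9 TPM under CAY10566, a log2 fold change of 0.50 and of 0.48 without that library.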
